A study of Mus musculus with 4 samples.

Results

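The interleukins and the CC and CXC chemokines were followed in B16-F10 cells, a metastatic mouse melanoma line, on 4 two-colour arrays. Members were the non-control probes whose gene name is Il followed by a number, or Ccl or Cxcl followed by a number, each with at most 1 closing letter, so that only ligands enter and receptors do not. This gave 82 of the 41174 gene probes of the array, for 65 of 27962 gene names. They split into 40 probes of 32 interleukin genes, 26 probes of 20 CC chemokine genes and 16 probes of 13 CXC chemokine genes.

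On each array, cells given a goat polyclonal agonist antibody against mouse TIM3 were labelled with Cy5 and cells given unspecific goat IgG were labelled with Cy3. Both were cultured in vitro for 2 h with the antibody, the IgG at 15 ug/ml and the anti-TIM3 antibody at 15 ug/ml where its dose is labelled, which leaves out replicate 3. TIM3, encoded by Havcr2, is an immune checkpoint receptor best known on T cells and myeloid cells. The 4 biological replicates came from passages 14, 16, 18 and 19 of 1 line, in the order of replicates 1 to 4, with 1 array each on 1 slide. No array had the dyes swapped, so the dye and the antibody cannot be told apart in any ratio below, and passage and array cannot be told apart either.

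Interleukins are secreted proteins by which leukocytes, and many other cells, signal to immune cells. Chemokines are small secreted proteins that guide migrating leukocytes through receptors coupled to G proteins, and the CC and CXC names describe the spacing of their first cysteines. Many genes of both kinds are silent in resting cells and are induced through NF-kappaB or interferon regulatory factors. Melanoma cells are known to make a few of them, among them the neutrophil attractant Cxcl1.

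The value of a spot below is either the deposited processed signal, in arbitrary scanner units, or a log2 ratio of anti-TIM3 over IgG after normexp background correction and loess normalization. A probe was called well above background by the flag of the scanner's software, and it was tested where 3 or more arrays of the 4 had that flag in 1 channel or the other. Means are given ± SD over the 4 arrays. Levels of different probes are not set against each other, since probes bind with different strength. In bulk RNA, fewer cells that make a transcript and less of it per cell cannot be told apart.

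Most members were not detected. Of the 82 probes, 43 (52.4%) were well above background on no array in either channel, against 11606 (28.2%) of all gene probes. Only 32 members (39.0%), of 28 genes, could be tested, against 26545 (64.5%) of all gene probes. Probes that cleared background everywhere, on each of the 4 arrays and with both antibodies, numbered 12 (14.6%) of 10 genes, against 20593 (50.01%) of all: Ccl5 with both its probes, Ccl25 with 2 of its 3, and Ccl19, Ccl27, Cxcl10, Il11, Il15, Il17d, Il18 and Il27 with 1 each. No member was saturated and none lacked a value on any array.

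The genes with no probe above background on any array numbered 32. They include the inflammatory interleukins Il1a and Il1b, the T cell cytokines Il5, Il9, Il17a, Il21, Il22 and Il31, the Il12b and Il23a subunits made by dendritic cells and macrophages, and Il17c, Il19, Il20 and Il25. Among the chemokines they are Ccl1, Ccl3, Ccl6, Ccl8, Ccl11, Ccl12, Ccl20, Ccl21c, Ccl22, Ccl24, Cxcl2, Cxcl4 (Pf4 in RefSeq), Cxcl5, Cxcl9, Cxcl11, Cxcl13, Cxcl14 and Cxcl15. Il3, Il7, Il12a, Ccl7 and Cxcl7 (Ppbp in RefSeq) exceeded background on 1 or 2 arrays, in the anti-TIM3 channel only, and were not tested. That leaves 37 genes without a tested probe. No level can be given for them beyond its lying near or under the background of these arrays.

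The channels differed in how many members they showed. In the anti-TIM3 channel 28, 33, 38 and 33 member probes were above background on replicates 1 to 4, against 15, 14, 13 and 16 in the IgG channel. The same held for all gene probes, with 25703, 28400, 28348 and 26705 in the anti-TIM3 channel and 22086, 21151, 21631 and 21662 in the IgG channel. Of the members, 10 (12.2%) were above background with anti-TIM3 on all 4 arrays and with IgG on none, a pattern that 2644 (6.42%) of all probes showed. They were single probes of Ccl2, Ccl17, Ccl25, Ccl28, Cxcl16, Il2, Il6, Il16, Il17f and Il28, which RefSeq names Ifnl3. No member and no other probe showed the opposite. Dye, channel and antibody are the same split here and cannot be told apart.

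**Figure D1:**
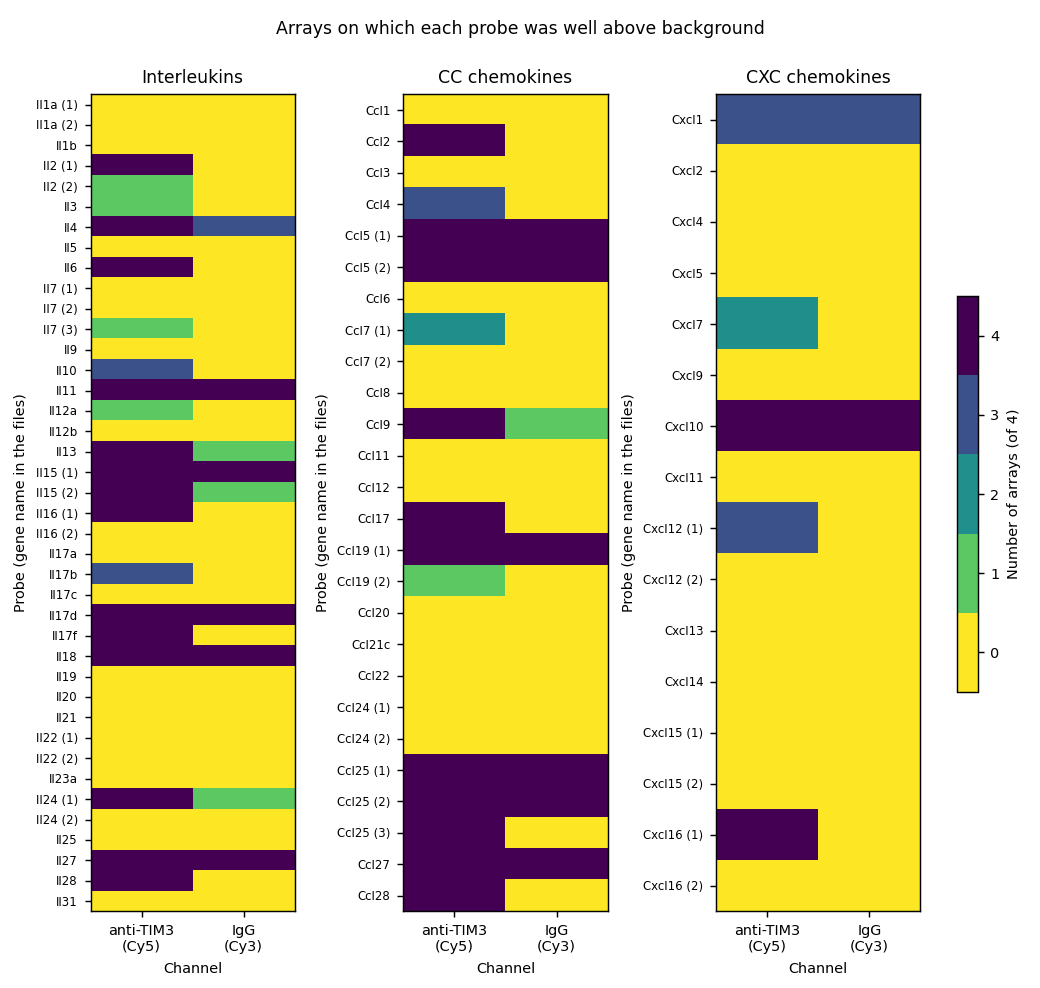
Number of arrays, of 4, on which each of the 82 member probes (rows, numbered where a gene has several) was well above background in the anti-TIM3 (Cy5) and IgG (Cy3) channels. A dark left cell beside a light right cell marks a probe seen on more arrays with anti-TIM3, as for 26 probes, and no probe has the reverse.

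Of the 32 tested members, 6 rose with anti-TIM3 and 3 fell at an adjusted p under 0.05 (limma, Benjamini-Hochberg over the 26545 tested probes), and 23 did not pass. The share called was 28.1%, beside 27.8% of all tested probes. Members with a mean log2 intensity under 8 numbered 22, and 27.3% of them were called, beside 17.9% of all such probes. From 8 upwards there were 10, with 30% called, beside 34.0%. Those that rose made up 18.8% of tested members, where 14.2% of all tested probes rose, and those that fell made up 9.38%, where 13.6% of all fell. The members' median log2 ratio was 0.03 and that of all tested probes 0.006, and the members ran from -0.18 to 0.23. The sign was the same on all 4 arrays for 17 of the 32 (53.1%) and for 47.7% of all tested probes. Of the 6 that rose, the probes of Cxcl16, Il16 and Il15 entered the test through the anti-TIM3 channel, where they are high, with the background flag set with IgG on at most 1 array. These counts are therefore a description of the probes that entered. Among the 12 that cleared background everywhere, Ccl25 and Cxcl10 rose and Il27 fell (25%, beside 31.1% of the 20593 such probes of the array). Centring each array on its median in place of loess left no member and no probe of the array called by limma (1 member at an unadjusted p under 0.05). Fitting the channels as unpaired intensities, which puts the spread between arrays into the error, left no member called (5 above and 3 below 0 at an unadjusted p under 0.05). In that fit 330 probes of the array still rose and 252 fell. Median centring put the median of all tested probes at 0.15, against which the members' ratios are then read.

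**Figure D2:**
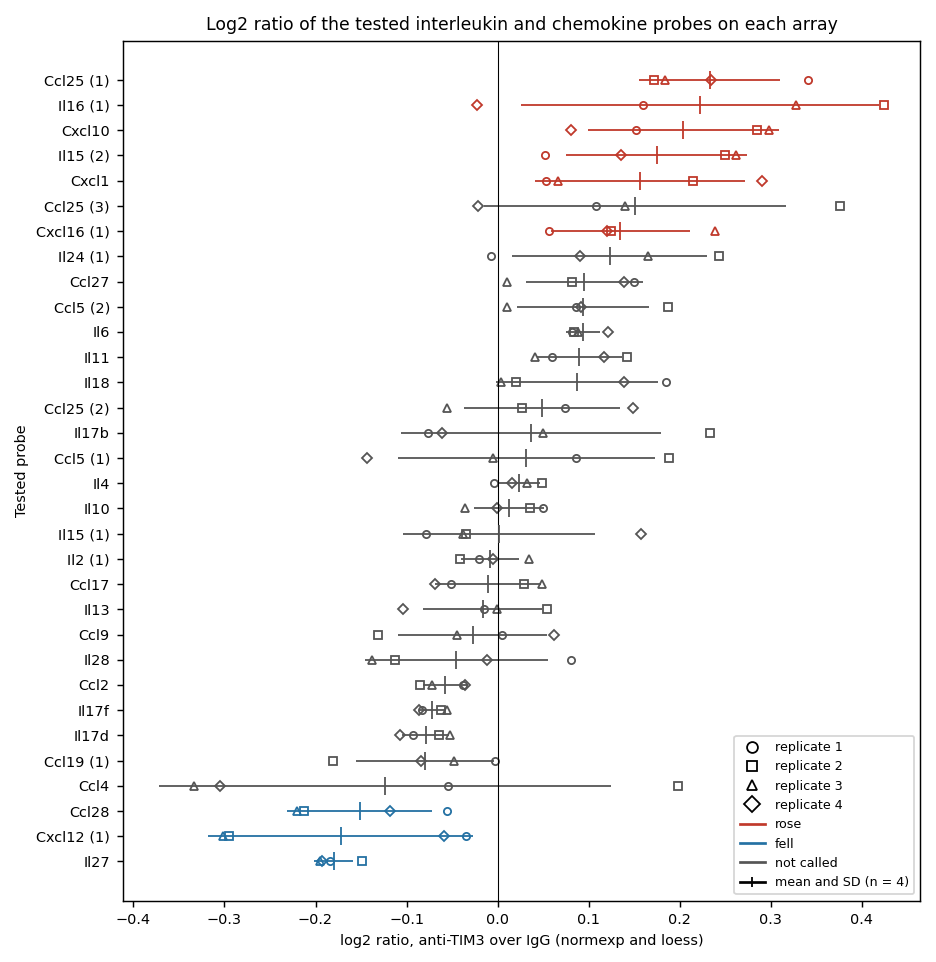
Log2 ratio of anti-TIM3 over IgG on each array (symbols, 1 per replicate) for the 32 tested member probes, with the mean and SD over 4 arrays and the call in colour. Means run from -0.18 (Il27) to 0.23 (the first Ccl25 probe), and the 4 arrays of several probes that were not called lie on both sides of 0.

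The CXC chemokines had 16 probes, of which 11 were above background on no array and 4 were tested. Among those 4, 3 rose and 1 fell, where 14.2% of all tested probes rose and 13.6% fell. So few probes give no share for the family, and only Cxcl10 and Cxcl1 were seen above background with IgG. Cxcl10, an interferon-induced attractant of activated T cells through Cxcr3, was read by a probe at chr5:92334002-92334061 (minus strand, build mm7). Its processed signals were 4669, 4274, 4615 and 4020 with anti-TIM3 and 4045, 3522, 3836 and 3775 with IgG. The anti-TIM3 channel was the brighter one on every array. The log2 ratios were 0.15, 0.28, 0.30 and 0.08, with a mean of 0.20 ± 0.11 and an adjusted p of 0.0110, and the deposited log ratio, on a log2 scale, averaged 0.21 ± 0.086. The call held when any 1 array was left out.

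Cxcl1, the mouse KC chemokine that draws neutrophils through Cxcr2 (chr5:90882059-90882118, plus strand, mm7), was above background in both channels on 3 arrays and in neither on replicate 1. Its signals were 8.49, 87.8, 120.8 and 114.9 with anti-TIM3, against 5.83, 64.3, 106.4 and 80.9 with IgG. The anti-TIM3 channel was the brighter on each array, and replicate 1 lay far below the other 3 in both channels. Log2 ratios of 0.05, 0.21, 0.07 and 0.29 gave a mean of 0.16 ± 0.12 and an adjusted p of 0.0354. Without replicate 2 the adjusted p was 0.115, and without replicate 4 it was 0.137. The deposited log ratio averaged 0.42 ± 0.16 on a log2 scale.

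Cxcl16, a chemokine made as a membrane-bound protein and read by Cxcr6, had 1 of its 2 probes above background (chr11:70535852-70535911, minus strand, mm7), with anti-TIM3 on all 4 arrays and with IgG on none. Its signals were 36.9, 28.6, 29.5 and 36.6 with anti-TIM3 and 29.8, 15.5, 11.1 and 24.8 with IgG. The IgG level was also set at the faintest signal that counted as above background on each array, or at its own where higher. The mean anti-TIM3 level was then 1.08-fold higher, a value without an error, for a probe that entered the test through the anti-TIM3 channel. The log2 ratios of 0.06, 0.12, 0.24 and 0.12 averaged 0.13 ± 0.08 (adjusted p = 0.0324), and the deposited log ratio averaged 0.79 ± 0.47. The call was lost without replicate 2, 3 or 4, at adjusted p values of 0.0816, 0.145 and 0.0801.

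Cxcl12, the ligand of Cxcr4 that retains haematopoietic cells in bone marrow, fell by its 1 tested probe (chr6:117207552-117207611, plus strand, mm7). Its signals were 17.9, 16.3, 9.07 and 9.53 with anti-TIM3 and 21.6, 20.0, 13.9 and 8.42 with IgG. On replicate 4 the processed signals ran the other way from the first 3 arrays. The log2 ratios were -0.03, -0.29, -0.30 and -0.06, with a mean of -0.17 ± 0.15 (adjusted p = 0.0395), and the deposited log ratio averaged -0.25 ± 0.33 (adjusted p = 0.213). Above background it was seen with anti-TIM3 on 3 arrays and with IgG on none, so no fold is given. Without replicate 2 or 3 its adjusted p was 0.141 or 0.131.

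The promoters of Cxcl10 and Cxcl1 are printed, with that of Il16 from the interleukins below, because these genes rose and hold matches to a spelling that NF-kappaB is known to bind. Each run is the 250 bases before the gene start in RefSeq (build GRCm38.p6), 5′ to 3′ on the gene's strand. Capitals mark 2 spellings searched on both strands, a kappaB-type one, GGGNNNTTCC, and an ISRE-type one for interferon regulatory factors, GAAANNGAAA, and they run together where matches overlap.
Cxcl10, chr5:92348890-92349139 (- strand): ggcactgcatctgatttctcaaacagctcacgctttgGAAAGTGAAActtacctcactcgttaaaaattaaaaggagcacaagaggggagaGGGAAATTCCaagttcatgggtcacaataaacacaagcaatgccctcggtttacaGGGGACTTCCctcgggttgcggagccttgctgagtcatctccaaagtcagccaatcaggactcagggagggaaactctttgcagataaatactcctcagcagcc
Cxcl1, chr5:90890995-90891244 (+ strand): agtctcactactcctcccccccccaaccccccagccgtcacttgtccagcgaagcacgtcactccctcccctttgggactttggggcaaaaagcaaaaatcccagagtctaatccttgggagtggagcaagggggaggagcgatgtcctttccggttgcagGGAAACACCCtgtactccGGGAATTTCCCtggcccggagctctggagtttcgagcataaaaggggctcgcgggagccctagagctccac
Il16, chr7:83655496-83655745 (- strand): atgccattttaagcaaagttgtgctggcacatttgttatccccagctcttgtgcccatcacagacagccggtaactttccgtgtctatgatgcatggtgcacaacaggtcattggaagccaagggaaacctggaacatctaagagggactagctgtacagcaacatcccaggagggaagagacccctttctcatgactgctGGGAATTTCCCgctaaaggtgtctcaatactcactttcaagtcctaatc

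Cxcl10 held kappaB-type matches starting 159 and 104 bases before the gene start and an ISRE-type match 213 bases before it. Cxcl1 held 3 kappaB-type matches, at 89, 71 and 70 bases before the start, the last 2 overlapping on opposite strands. Il16, by 1 of its 3 listed promoters, had an overlapping pair at 49 and 48 bases. Over windows of 300 bases, from 250 before the start to 50 after it, the kappaB-type spelling occurred in 1825 of 32851 RefSeq promoters (5.56%) and in 9 of 55 promoters of the 47 member genes matched (16.4%). The 9 genes were Ccl1, Ccl9, Ccl20, Cxcl1, Cxcl2, Cxcl10, Il6, Il9 and Il16. Of these, Ccl1, Ccl20, Cxcl2 and Il9 were above background on no array, and Ccl9 and Il6 were tested and did not pass. The other 3 rose, Il16 by a probe above background with IgG on no array. So few genes give no share, and 14.2% of all tested probes rose. The promoters of Ccl25, which rose too by 1 of its 3 probes, held no kappaB-type match. Nor did those of Ccl28 and Cxcl12, which fell. Whether matches and ratios go together was not tested. Promoters of Ccl2, Ccl4, Ccl5, Ccl7, Ccl11, Ccl21c, Ccl24, Cxcl5, Cxcl11, Cxcl16, Il7, Il10, Il15, Il17b, Il23a, Il24, Il25 and Il27 were not searched. Among these genes, Cxcl16 and 1 of the 2 tested Il15 probes rose, and Il27 fell. The ISRE-type spelling stood in 3.44% of all promoters and in 5 of the 55, those of Ccl19, Cxcl10, Cxcl14, Il4 and Il19. The TATA box spelling TATAAA stood in 13.6% of all and in 17 of the 55. A match describes letters and no measured binding.

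Of the 12 tested CC chemokine probes, 1 rose, 1 fell and 10 did not pass, where 14.2% of all tested probes rose and 13.6% fell. Ccl25, which brings T cells to thymus and small intestine through Ccr9, rose by 1 of its 3 probes (chr8:4325884-4325943, plus strand, mm7). That probe read 2433, 1979, 2151 and 2275 with anti-TIM3 and 1892, 1819, 1978 and 1982 with IgG. Every array had the higher signal with anti-TIM3, by log2 ratios of 0.34, 0.17, 0.18 and 0.23 and a mean of 0.23 ± 0.08 (adjusted p = 0.00403). The call held without any 1 array. By the deposited log ratio, 0.20 ± 0.11 on a log2 scale, it missed the threshold (adjusted p = 0.0579).

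The other 2 tested Ccl25 probes did not pass. The probe that spans chr8:4320170-4323618 read 245.2, 214.8, 226.2 and 222.9 with anti-TIM3 and 212.2, 210.4, 232.4 and 189.9 with IgG. Its log2 ratios were 0.07, 0.03, -0.06 and 0.15 (mean 0.05 ± 0.09, adjusted p = 0.390, deposited 0.11 ± 0.13). The probe at chr8:4299246-4299305 was above background only with anti-TIM3, with a mean of 0.15 ± 0.17 (adjusted p = 0.0791). All 3 means lay above 0, and only the first passed the adjusted threshold.

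Ccl28, a mucosal chemokine that binds Ccr10 and Ccr3, fell. Its signals were 18.9, 15.4, 15.6 and 17.8 with anti-TIM3 and 23.0, 20.8, 25.9 and 24.2 with IgG, and these ranges do not overlap. The log2 ratios were -0.06, -0.21, -0.22 and -0.12 (mean -0.15 ± 0.08, adjusted p = 0.0221), and the deposited log ratio averaged -0.48 ± 0.19. The background flag ran against the ratio, being set on all 4 arrays with anti-TIM3 and on none with IgG, so no fold is given. The probe lies on mm7's unplaced sequence, and without replicate 2, 3 or 4 the adjusted p was 0.0889, 0.0864 or 0.0524.

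Ccl5, the chemokine RANTES that attracts T cells and monocytes, was above background throughout and did not pass by either probe. The probe at chr11:83595699-83595758 (minus strand, mm7) read 2513, 1610, 1157 and 1329 with anti-TIM3 and 2358, 1455, 1204 and 1501 with IgG. Its log2 ratios were 0.09, 0.19, -0.005 and -0.14, with a mean of 0.03 ± 0.14 (adjusted p = 0.675, deposited 0.001 ± 0.15). The other probe, at chr11:83595850-83595905, read 1174, 725.4, 503.6 and 605.4 with anti-TIM3 and 1079, 642.8, 517.0 and 575.9 with IgG, with ratios of 0.09, 0.19, 0.01 and 0.09 (mean 0.09 ± 0.07, adjusted p = 0.0972, deposited 0.08 ± 0.091). Both probes had their highest signals on replicate 1 and their lowest on replicate 3, in both channels.

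Ccl27 (Ccl27a in RefSeq), a skin chemokine for T cells bearing Ccr10, read 476.0, 331.4, 331.9 and 370.1 with anti-TIM3 and 393.0, 308.0, 327.7 and 324.6 with IgG. It was higher with anti-TIM3 on each array, at 0.15, 0.08, 0.01 and 0.14, but did not pass (mean 0.10 ± 0.06, adjusted p = 0.0850, deposited 0.15 ± 0.11). Ccl19, which guides dendritic cells and T cells to lymph nodes through Ccr7, read 57.9, 38.6, 43.3 and 41.3 with anti-TIM3 and 54.7, 47.7, 48.2 and 39.1 with IgG. Its ratios of -0.003, -0.18, -0.05 and -0.08 (mean -0.08 ± 0.08, adjusted p = 0.154, deposited -0.07 ± 0.19) did not pass, and its second probe was above background on 1 array. Ccl19, Ccl21c and Ccl27 have near-identical copies in the mouse genome, so their probes may read more than 1 gene.

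The remaining tested CC chemokines cleared background with IgG on at most 1 array. Ccl2, the monocyte attractant MCP-1, had a mean log2 ratio of -0.06 ± 0.02 with all 4 arrays below 0 (adjusted p = 0.217). Ccl4, a chemokine made by activated macrophages, was the most scattered member, from -0.33 to 0.20 (mean -0.12 ± 0.25, adjusted p = 0.260). Ccl17, a Ccr4 ligand made by dendritic cells, averaged -0.01 ± 0.06, and Ccl9 averaged -0.03 ± 0.08.

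Among the interleukins, 2 of 16 tested probes rose, 1 fell and 13 did not pass, where 14.2% of all tested probes rose and 13.6% fell. In the families of interleukins 6 and 12, Il27 fell. It encodes the p28 subunit of interleukin 27, which pairs with Ebi3 and acts on T cells. Its probe (chr7:122689181-122689240, minus strand, mm7) read 450.8, 367.8, 394.8 and 378.6 with anti-TIM3 and 507.1, 421.0, 468.8 and 453.9 with IgG. The anti-TIM3 signal was the lower on every array, with log2 ratios of -0.18, -0.15, -0.19 and -0.19. The mean of -0.18 ± 0.02 had an adjusted p of 0.00554, and the deposited log ratio averaged -0.22 ± 0.04. The call held without any 1 array, but with arrays centred on their median the ratio was 9.64e-05, which is no longer below 0 and lies under the median of 0.15 that all tested probes then had.

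Il11, a cytokine of the interleukin 6 family that signals through gp130, read 129.5, 293.1, 549.0 and 369.8 with anti-TIM3, against 115.9, 262.4, 534.2 and 339.0 with IgG (chr7:4347807-4347866, minus strand, mm7). The anti-TIM3 signal was higher on all 4 arrays, at 0.06, 0.14, 0.04 and 0.12, and the mean of 0.09 ± 0.05 did not pass (adjusted p = 0.0847, deposited 0.12 ± 0.06). Il6 itself, a driver of acute inflammation, was above background with anti-TIM3 on all 4 arrays and with IgG on none. It read 28.9, 31.5, 28.1 and 28.2 with anti-TIM3 and 22.1, 28.3, 24.5 and 21.1 with IgG. The log2 ratios of 0.08, 0.08, 0.09 and 0.12 (mean 0.09 ± 0.02) had an adjusted p of 0.0606, while the deposited log ratio, 0.30 ± 0.14 on a log2 scale, passed (adjusted p = 0.0340).

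Il15, a growth factor for natural killer cells and memory T cells that uses the common gamma chain, had 2 tested probes that differed. The probe at chr8:80892142-80892201 (minus strand, mm7) read 49.4, 29.8, 19.8 and 25.1 with anti-TIM3 and 41.3, 19.8, 12.5 and 20.2 with IgG. Above background it was on all 4 arrays with anti-TIM3 and on 1 with IgG, and it rose, with ratios of 0.05, 0.25, 0.26 and 0.14 (mean 0.17 ± 0.10, adjusted p = 0.0182, deposited 0.46 ± 0.20). Without replicate 2 or 3 its adjusted p was 0.0707 or 0.0672. The probe at chr8:80900975-80901034, which cleared background everywhere, read 62.5, 57.3, 48.3 and 59.7 with anti-TIM3 and 63.6, 52.0, 41.1 and 49.2 with IgG. Its ratios of -0.08, -0.03, -0.04 and 0.16 averaged 0.001 ± 0.11 (adjusted p = 0.986, deposited 0.16 ± 0.13). The call therefore rests on the probe that was above background with IgG on 1 array.

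The other tested interleukins that use the common gamma chain lay near 0. Il2, the T cell growth factor, averaged -0.008 ± 0.03 (adjusted p = 0.876), and Il4, the cytokine of type 2 helper T cells, averaged 0.02 ± 0.02 (adjusted p = 0.624).

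Il16, which is cut from an intracellular precursor and attracts CD4+ T cells, rose by 1 of its 2 probes (chr7:79564724-79564783, minus strand, mm7). It read 29.4, 18.8, 24.2 and 20.9 with anti-TIM3 and 24.4, 9.98, 21.6 and 16.7 with IgG, and was above background with anti-TIM3 on all 4 arrays and with IgG on none. The log2 ratios were 0.16, 0.42, 0.33 and -0.02, so that 3 of 4 arrays were above 0. The mean of 0.22 ± 0.20 had an adjusted p of 0.0335, and the deposited log ratio of 0.42 ± 0.34 did not pass (adjusted p = 0.0836). With the IgG level set as for Cxcl16, the mean anti-TIM3 level was 1.05-fold higher, again without an error. Without replicate 1, 2 or 3 the adjusted p was 0.0803, 0.114 or 0.0865.

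Il18, which belongs to the interleukin 1 family and is released after cleavage by caspase-1, was above background throughout (chr9:50557947-50560075, plus strand, mm7). It read 663.0, 451.7, 338.9 and 437.4 with anti-TIM3 and 547.2, 453.9, 345.3 and 393.0 with IgG. The ratios of 0.19, 0.02, 0.004 and 0.14 (mean 0.09 ± 0.09, adjusted p = 0.141, deposited 0.10 ± 0.14) did not pass. Il1a and Il1b, of the same family, were not seen at all.

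Il17d, a member of the interleukin 17 family, read 418.9, 395.2, 883.0 and 654.7 with anti-TIM3 and 437.1, 425.8, 920.8 and 701.5 with IgG (chr14:52411003-52411062, plus strand, mm7). It was lower with anti-TIM3 on all 4 arrays, at -0.09, -0.06, -0.05 and -0.11, without passing (mean -0.08 ± 0.03, adjusted p = 0.104, deposited -0.08 ± 0.02). Il17f was also below 0 on all 4 arrays (mean -0.07 ± 0.02, adjusted p = 0.129), and Il17b was scattered around 0 (0.04 ± 0.14). In the interleukin 10 family, Il24 had the highest mean, 0.12 ± 0.11 (adjusted p = 0.0680), and Il10 and Il28 had 0.01 ± 0.04 and -0.05 ± 0.10. Il13, a type 2 cytokine, had -0.02 ± 0.07.

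Fewer members passed by the deposited log ratios. With the same test, 7 of the 32 members passed (21.9%), where 19.8% of all tested probes did, and 6 of them were among the 9 called above: Ccl28, Cxcl1, Cxcl10, Cxcl16, Il15 and Il27. Ccl25, Cxcl12 and Il16 were no longer called and Il6 was added. The deposited ratio of Cxcl16, 0.79, compares with 0.13 after normexp and loess, and that of Ccl28, -0.48, with -0.15. When normexp added 10 rather than 50, these probes had 0.24 and -0.25. Cxcl10, at 0.21 deposited and 0.20 after loess, and Il27, at -0.22 and -0.18, moved little.

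**Figure D3:**
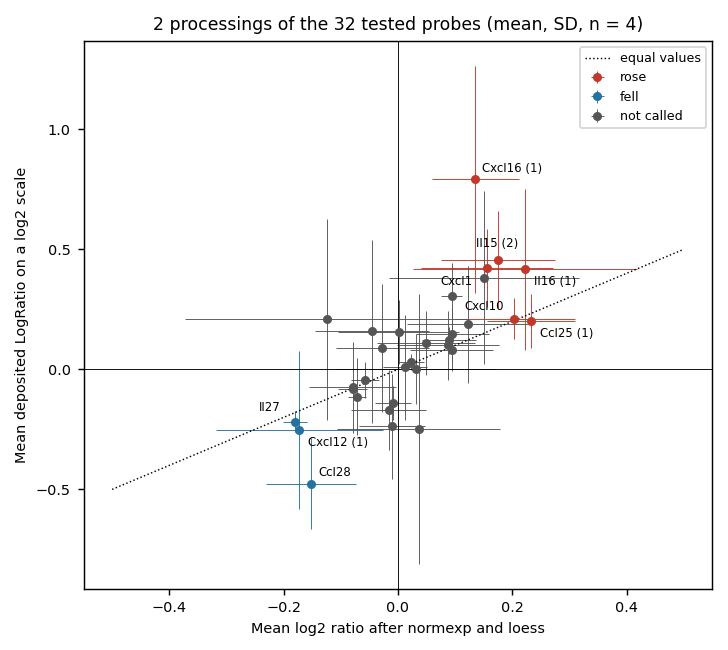
Mean deposited log ratio on a log2 scale (vertical axis) against the mean log2 ratio after normexp and loess (horizontal axis) for the 32 tested members, with SDs over 4 arrays. Cxcl10, Ccl25 and Il27 lie close to the dotted line of equal values, while Cxcl16 and Ccl28, which were above background with IgG on no array, lie well off it.

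For several ligands the 4 arrays differed far more than the channels did. On the normalized log2 scale, Il11 spanned 1.82 between its lowest and highest array with anti-TIM3 and 1.84 with IgG, a 3.53-fold and a 3.58-fold range. Cxcl1 spanned 1.48 with anti-TIM3 and 1.44 with IgG, and Il17d 1.23 with anti-TIM3 and 1.19 with IgG. Cxcl1 and Il11 were lowest on the array of passage 14, and Il11 and Il17d were highest on that of passage 18, in both channels. Ccl5 ran the other way, highest at passage 14 and lowest at passage 18, over 0.83 with anti-TIM3 and 0.75 with IgG by its probe at chr11:83595850-83595905.

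The range was above 1 in both channels for 3 of the 14 members detected in both channels on 3 or 4 arrays (21.4%), and for 160 of 21176 probes of the array chosen the same way (0.756%). The median range of the members was 0.22 with anti-TIM3 and 0.28 with IgG, beside 0.21 and 0.24 over all these probes, and 9 of the 14 lay above the middle of the array in each channel. Cxcl10 spanned 0.22 with anti-TIM3 and 0.19 with IgG, and Il27 only 0.09 with anti-TIM3 and 0.11 with IgG. In 11 of the 14 the range over IgG channels was larger than the mean log2 ratio without its sign (78.6%), as it was for 87.2% of all these probes. With 1 array a passage this is a description without a test, and it was looked at after the data were seen.

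**Figure D4:**
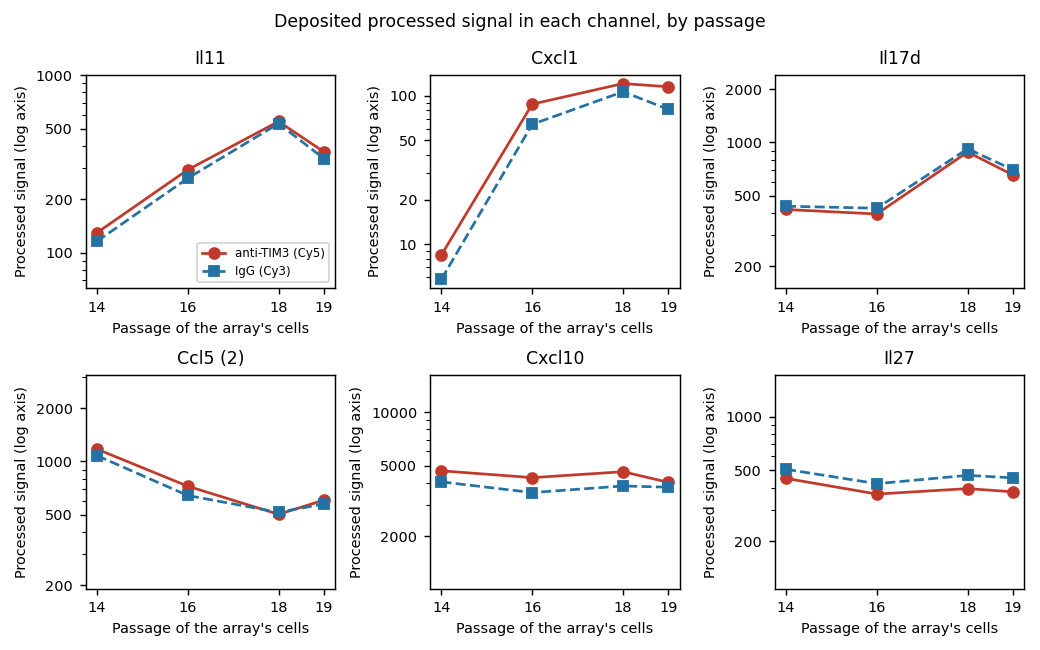
Deposited processed signal (log axis) of 6 member probes in the anti-TIM3 (circles, solid line) and IgG (squares, dashed line) channels, by the passage of the cells on each array. The channels follow each other closely, while Il11, Cxcl1, Il17d and Ccl5 differ clearly between passages and Cxcl10 and Il27 are nearly flat.

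A few ligands of these families carry older names on the array and so lay outside the name rule. Il33, an alarmin of the interleukin 1 family listed as 9230117N10Rik, cleared background everywhere and rose by 0.25 ± 0.04 (adjusted p = 0.00198, deposited 0.25). Il34, a ligand of the receptor Csf1r listed as 2010004A03Rik, fell (-0.12 ± 0.05, adjusted p = 0.0385). Cxcl3 and Cxcl17 were above background on no array. Of the antagonists and other cytokines outside the rule, 3 of 17 tested probes rose and none fell (17.6%, beside 27.8% of all, median log2 ratio 0.06): 1 probe of Cntf at 0.19 ± 0.03, Mif at 0.16 ± 0.03 and Tnfsf13b (BAFF) at 0.13 ± 0.09. The other Cntf probe had the opposite sign (-0.06 ± 0.03, adjusted p = 0.188), and so had Mif's deposited log ratio, at -0.10.

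Of 48 tested probes for receptors of interleukins and chemokines, 4 rose and 5 fell (18.8%, beside 27.8% of all), with a median of -0.0001. The furthest from 0 among those that passed were Il2rb (-0.33 ± 0.24), Il17re (-0.25 ± 0.18), Il17rd (listed as 2810004A10Rik, 0.20 ± 0.08), Il20rb (listed as Fndc6, 0.17 ± 0.07), Il13ra1 (-0.16 ± 0.07) and Il17rc (-0.15 ± 0.07). Other tested probes of Il20rb, Il13ra1, Il17rc and Il17rd lay between -0.05 and 0.08 and did not pass. Of those furthest from 0, only Il17rd passed by the deposited log ratios (adjusted p = 0.0402). Il20rb, Il13ra1 and Il17rc missed the threshold (adjusted p = 0.0607, 0.0889 and 0.0587). Il2rb had a deposited ratio of only -0.07 (adjusted p = 0.779). Il17re missed it too (adjusted p = 0.502), and its probe was above background with anti-TIM3 on 3 arrays and with IgG on none.

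Of 55 tested probes for genes that carry signals to cytokine promoters, 9 rose and 12 fell (38.2%, beside 27.8% of all and 34.0% of those with a mean log2 intensity from 8, median 0.02). A probe of the interferon regulatory factor gene Irf1 fell by 0.39 on the log2 scale (SD 0.10), while its other probe was at 0.03 ± 0.04 (adjusted p = 0.582). For Cebpb, a factor bound at many cytokine promoters, 1 probe fell by 0.26 and the other was at 0.03 ± 0.09 (adjusted p = 0.663). For Irak1, a kinase below interleukin 1 receptors, 1 probe fell by 0.21 and the others, at 0.05 and -0.03, did not pass. The probes of Nfkb1, the p50 subunit of NF-kappaB, opposed each other, with 0.25 ± 0.10 for one and -0.29 ± 0.13 for another, and the remaining probes at 0.02 and -0.03. Those of Irf3 did too, at 0.21 ± 0.16 and -0.11 ± 0.03, and 3 probes of the kinase subunit gene Ikbkg rose, by 0.13 ± 0.06, 0.17 ± 0.04 and, for one never above background with IgG, 0.21 ± 0.10, while its remaining tested probe was at 0.004 ± 0.11 (adjusted p = 0.957). Both probes of Rela fell (-0.18 ± 0.14 and -0.18 ± 0.10), and so did both of Ticam1 (-0.16 ± 0.10 and -0.14 ± 0.05). Among the probes of Rela and Ticam1, only the second for Rela passed by the deposited log ratios (adjusted p = 0.0391). Nfkbib (0.18 ± 0.03), Tnfaip3 (0.12 ± 0.04) and Rel, never above background with IgG (0.14 ± 0.05), rose, and Zfp36l2 fell (-0.16 ± 0.05). For Tirap 1 probe rose (0.16 ± 0.06), and for Chuk and Traf6 1 each fell (-0.20 ± 0.03 and -0.11 ± 0.06). The other tested probe of each of these 3 genes did not pass. The called probes of Nfkbib, Zfp36l2, Tirap and Chuk passed by the deposited log ratios, and those of Rel, Tnfaip3 and Traf6 did not. No direction is given for a gene whose probes disagree.

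The gene of the targeted receptor, Havcr2, cleared background everywhere by 1 of its 2 probes and did not pass (0.04 ± 0.04, adjusted p = 0.4005). Of 28 probes for leukocyte markers, 14 were above background on no array and 6 in both channels on all 4. All 4 probes of Ptprc, the leukocyte common antigen CD45, and both probes each of Itgam and of the macrophage gene Emr1 were among those not seen. Of the 12 tested, 1 probe of Lyz2 rose (0.13 ± 0.02, the other at 0.004 ± 0.09) and Cd14 fell (-0.18 ± 0.13). All 10 probes for melanoma markers cleared background everywhere, and 7 rose and 1 fell, with a Dct probe at 0.62 ± 0.15 and Mlana at 0.58 ± 0.13. That is 80%, beside 27.8% of all tested probes and 31.1% of those that cleared background everywhere. Among those that rose, both Dct probes, Mlana, Tyrp1 and Si (Pmel) had mean log2 intensities of 16.5 to 16.8. The median of all probes that cleared background everywhere was 9.94, so 31.1% is not a share for probes as bright. By the deposited log ratios the Dct probe at 0.62 and Mlana had 0.33 and 0.30 and passed. The other 5 that rose, for Dct, Tyrp1, Mitf, Sox10 and Si, had 0.10 to 0.19 and did not. The probe that fell was the other one for Sox10 (-0.30 ± 0.12).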

How the data were processed

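Agilent two-colour arrays were scanned and their intensity values were deposited per spot, as mean, background and processed signals. Per the file headers these came from Feature Extraction 9.5.1.1, with surrogate values for faint spots and probe positions on build mm7. Version 9 of that software is given per the submitters' processing notes. The deposited LogRatio is a log10 ratio of Cy5 over Cy3, and the value table deposited beside it equalled it on all 45018 rows (column medians of 0.0). Here it was multiplied to a log2 scale.

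Mean signals were corrected by normexp (offset 50, limma 3.58.1, R 4.3.3) and normalized by loess within each array, giving control spots a weight of 0. Spots flagged as outliers were dropped, spots of a probe were averaged, and a probe's flag counted where at least 50% of its spots had it. Log2 ratios were tested against 0 (lmFit, eBayes, Benjamini-Hochberg) over 26545 probes. The script was tested on simulated data. Since the replicates are passages of 1 line, p-values reflect only how those passages vary.

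The members and gene lists were chosen with earlier results of these data known. Members that passed, or that cleared background on every array and channel, are given by array and other tested ones by mean. From other lists up to 6 that passed are given, by size, and all that passed among the genes that carry signals to cytokine promoters. The LogRatio column stood for the ratio of processed signals, from which it departs on some surrogate spots. Of 82 member probes, 73 were matched to RefSeq by accession and 9 by symbol. The array number limits the precision. No genome was used here, so exon and UTR positions of probes are not given.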

Additional observations from a re-analysis of the deposited data

Results flagged for a closer look

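Each set of 4 arrays was examined for 1 value far from the other 3, over 32 log2 ratios and 28 intensities by Dixon's test, and chance alone marks about 1 set in 20. The log2 ratio of Il6 on replicate 4 was 0.121, with the other 3 arrays between 0.08 and 0.09. The anti-TIM3 intensity of Cxcl1 on replicate 1 was 6.53 on the log2 scale, against 7.78 to 8.02 on the others, and the IgG intensity of that array was also its lowest, at 6.48. The anti-TIM3 intensity of Cxcl10 on replicate 3 was 12.35, against 12.13 to 12.16 on the others.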

How the results depend on the processing

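Normalized as above, 6 members rose and 3 fell, of 3776 and 3600 probes on the whole array. Median centring called 0 and 0 members and 0 and 0 of all probes by limma (at an unadjusted p under 0.05, 1 and 0 members, 968 and 38 of all), with all 9 calls lost and Il27 at 9.64e-05, although Cxcl10, Ccl25 and Cxcl1 had larger ratios than before, at 0.55, 0.54 and 0.37, and Cxcl12 and Ccl28 had -0.27 and -0.23. Fitting the channels as separate, unpaired intensities left the ratios as they were and called 0 and 0 members (5 and 3 at an unadjusted p under 0.05) and 330 and 252 of all probes. The deposited ratios called 5 and 2 members and 2871 and 2382 of all, and an offset of 10 called 5 and 2 members, without Cxcl1, Cxcl12 and Il16, whose ratios were larger (0.20, -0.30 and 0.42). Requiring both channels on all 4 arrays left 12 tested members, 2 of which rose and 1 fell, and no filter gave 8 and 7. Leaving out 1 array gave 2 to 6 members that rose and 1 to 3 that fell, and 2142 to 3515 and 2080 to 2736 of all. Keeping outlier spots changed no member's call. The count of detected members depends on the rule: 32 probes of 28 genes above, 54 of 47 by the looser flag for signals significantly over background, 14 of 12 with both channels on at least 3 arrays, and 12 of 10 with both on all 4. The ratios tested above already pair the channels of an array. Where a gene had several probes, each is given in place of the brightest. Faint signals limit most members: 22 of the 32 tested had a mean log2 intensity under 8.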
